A study of Mus musculus with 32 samples.

Results

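The nuclear-encoded subunits of the mitochondrial respiratory chain and of ATP synthase were examined at their promoters in primary *MLL-AF9* leukemias that carry or lack *Kat2a*. They were taken from the GENCODE M21 annotation of the mouse genome (mm10) by symbol, as protein-coding nuclear genes whose names begin with Nduf, Uqcr, Cox4 to Cox8 or Atp5, or are *Sdha* to *Sdhd*. This gave 94 gene records, with 93 symbols, of 21938 nuclear protein-coding genes. By symbol, 46 fell to complex I, 4 to complex II, 8 to complex III, 18 to complex IV and 18 to complex V. The 46 of complex I include 8 Ndufaf genes, which encode assembly factors rather than subunits, and *Ndufa4*, whose product is now placed in complex IV. *Atp5o* has 2 records. The second spans chr16:91684398-91926982 on the minus strand, has a single transcription start site (TSS) inside the first record, and had no peak of any mark.

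Both groups came from mice homozygous for a floxed *Kat2a* allele and treated with pIpC, which induces the interferon-responsive *Mx1-Cre*. *Kat2a* WT animals lacked *Mx1-Cre* and *Kat2a* KO animals carried 1 copy of it. Bone marrow taken 4 to 6 weeks after pIpC and depleted of mature lineages was transduced with an *MLL-AF9* retrovirus and transplanted into irradiated recipients. Cells from leukemias of 5 WT and 4 KO animals were each pooled, and each pool was immunoprecipitated in 2 replicates with antibodies to H3K9ac, H3K4me3, H3K27ac and H3K4me1. Both replicates of a genotype were drawn from 1 pool of animals, and their spread therefore holds no variation between leukemias.

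In the chain, electrons from NADH enter at complex I and those from succinate at complex II. They pass through complex III and cytochrome c to oxygen at complex IV, and the proton gradient drives ATP synthase, complex V. The subunits are made throughout the body, except for isoforms of complex IV restricted to muscle, lung or testis. H3K4me3 and acetylation at H3K9 and H3K27 mark active promoters, H3K4me1 flanks them and marks enhancers, and Kat2a is an acetyltransferase that can write H3K9ac. Myeloid leukemia cells are known to depend on mitochondrial respiration.

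A gene was counted as listed when a peak overlapped the stretch from 1 kb upstream to 500 bp downstream of any of its TSS. Its level was the fold enrichment of the strongest such peak, the ratio of signal over background that the authors' peak caller gave at the summit. The 4 H3K9ac libraries held 27657 to 33605 peaks and the 4 H3K4me3 libraries 15685 to 23297. The replicate 1 lists of H3K27ac and H3K4me1 stood apart, with 0 to 13 peaks at a q-value of at most 0.05 and a median width of 48 to 49 bp. Replicate 2 was therefore used for these 2 marks, with replicate 1 given beside it. The deposited lists hold no read counts, so sequencing depth is unknown. *Kat2a* itself had an H3K9ac peak in all 4 libraries, at 8.002 and 4.58-fold in WT and 7.48 and 11.8-fold in KO. The excision removes internal exons, so this promoter peak does not check the deletion. H3K9ac was listed in all 4 libraries at 9 of 11 myeloid marker genes (*Elane* and *Mpo* lacked it in KO replicate 1), and in none at the 3 B cell and 3 T cell markers. It was listed in all 4 at 0 of 3 erythroid, 2 of 4 endothelial and stromal and 0 of 3 muscle markers.

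The respiratory chain promoters carried H3K9ac and H3K4me3 in both genotypes. H3K9ac was listed in all 4 libraries at 87 of the 94 genes (92.6%), against 49.4% of all nuclear protein-coding genes. H3K4me3 was listed in all 4 at 84 (89.4%), against 46.7%. These 84 genes were listed in all 8 libraries of the 2 marks. Taken by genotype, H3K9ac was listed at 87 members in both WT libraries (51.7% of all genes) and at 87 in both KO libraries (50.1%). No member was listed in both WT libraries and neither KO library, in H3K9ac (0.647% of all genes) or in H3K4me3 (0.346%). None was listed in both KO and neither WT library either, where the shares of all genes were 0.173% and 0.228%. Complexes II and III were complete, with all 4 and all 8 genes listed for both marks in all 4 libraries. Complex I had H3K9ac in all 4 libraries at 45 of 46 genes and complex V at 17 of 18, and complex IV at 13 of 18. Other broadly expressed families were marked to a like extent, with H3K9ac listed in all 4 libraries at 78 of 78 mitochondrial ribosomal protein genes and at 82 of 86 cytosolic ones. In bulk chromatin, fewer cells with a mark and less of the mark per cell cannot be told apart.

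**Figure D1:**
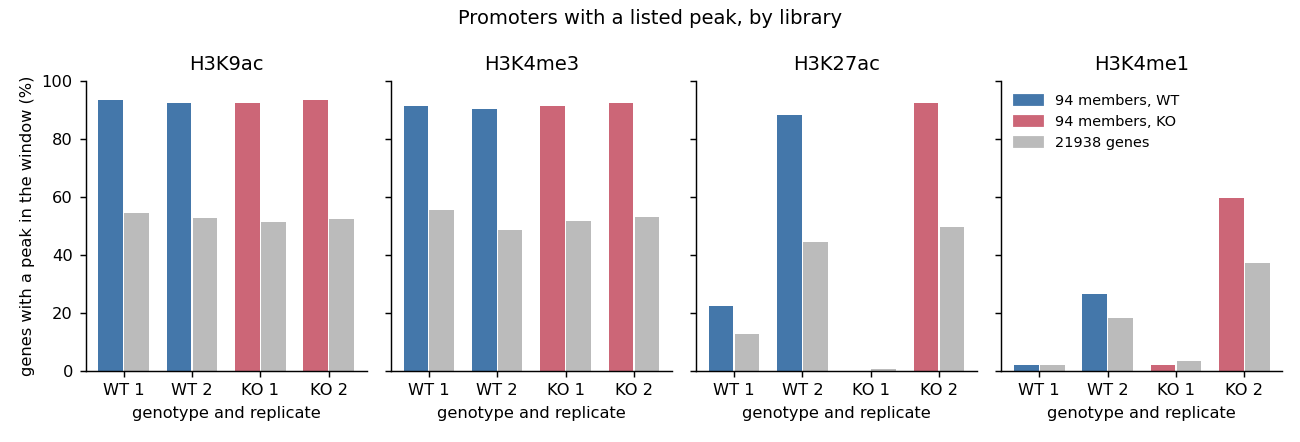
Share of genes (%) with a peak of each mark in the promoter window, by genotype and replicate, for the 94 respiratory chain and ATP synthase genes (coloured bars) and all 21938 nuclear protein-coding genes (grey bars). The members lie between 90.4% and 93.6% in each H3K9ac and H3K4me3 library; replicate 1 of H3K27ac and H3K4me1 holds few promoter peaks.

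Apart from the second *Atp5o* record, the promoters without H3K9ac or H3K4me3 were those of tissue-restricted isoforms. Of the 8 such genes, *Ndufa4l2*, *Cox6a2*, *Cox7b2*, *Cox8b* and *Cox8c* had no peak of H3K9ac or H3K4me3 in any library. *Cox4i2*, the lung isoform of Cox4, had weak H3K9ac peaks in WT replicate 1 (3.02-fold) and KO replicate 2 (3.71-fold) and no H3K4me3 peak. *Cox7a1*, the heart and muscle partner of *Cox7a2*, had H3K9ac in all 4 libraries, at 4.83 and 8.76-fold in WT and 4.24 and 4.68-fold in KO. Its H3K4me3 peak was listed in replicate 2 of each genotype only (4.43-fold in WT, 3.46-fold in KO). *Cox6b2*, the testis isoform of Cox6b, was the only one listed for both marks in every library. It had H3K9ac at 3.12 and 4.58-fold in WT and 3.73 and 7.02-fold in KO, which gave it the lowest mean H3K9ac rank of the complex IV genes listed in all 4 libraries. The 7 broadly expressed partners were all listed for H3K9ac in the 4 libraries. *Cox8a* had 14.1 and 19.0-fold in WT and 20.9 and 12.6-fold in KO, *Cox6a1* 12.4 and 9.15-fold in WT and 10.97 and 14.4-fold in KO. *Cox7b* was the weakest partner, with 6.53 and 7.11-fold in WT and 4.18 and 9.27-fold in KO, and its H3K4me3 peak was missing in WT replicate 2. WT and KO values overlapped at *Cox8a*, *Cox7b* and *Cox6b2*, as listed and once the libraries were centred on their medians. At *Cox7a1* both KO values were the lower ones as listed but overlapped with WT after centring, and at *Cox6a1* the values overlapped as listed and both KO values were above WT after centring.

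**Figure D2:**
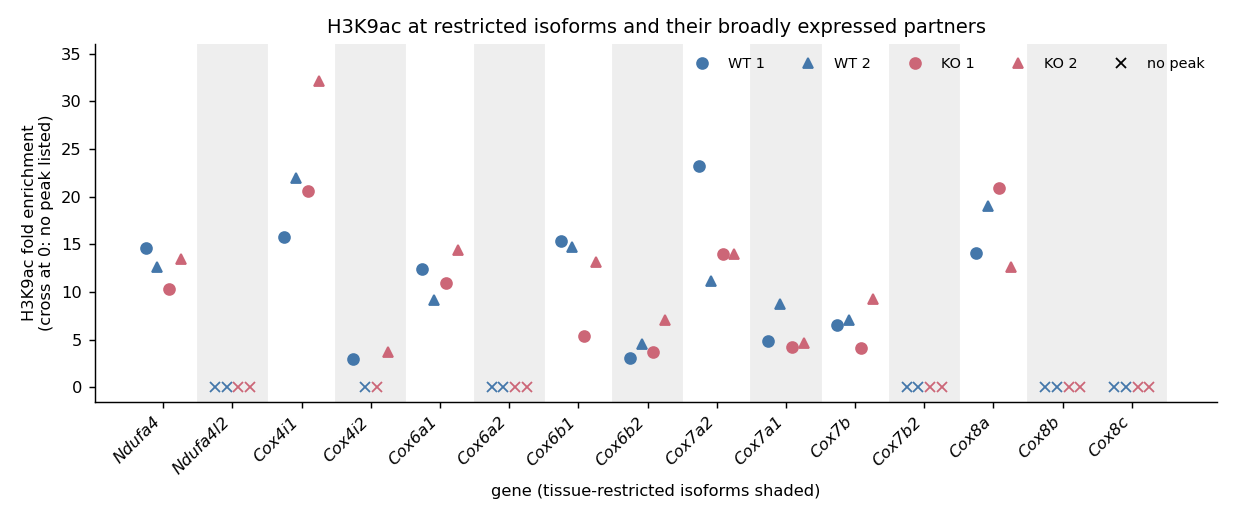
H3K9ac fold enrichment of the strongest promoter peak in each of the 4 libraries, for the tissue-restricted isoforms (shaded) and their broadly expressed partners; circles are replicate 1, triangles replicate 2, and a cross at 0 stands for no listed peak. *Cox7a1* and *Cox6b2* have a peak in every library, *Cox4i2* in 2 of 4 and the other 5 restricted isoforms in none.

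Promoter sequences (RefSeq, GRCm38.p6, 250 bases before to 50 after the start) were held for 76 of the 93 symbols, 74 by symbol and 2 by synonym, with 81 promoters among them. The bases before the start of 2 isoform pairs are printed to show how the sequence of a marked and an unmarked promoter differs, with every CpG in capitals. Each touches no annotated exon, runs 5′ to 3′ on the strand of its gene and ends 1 base before the start.
*Cox8a* (marked; chr19:7217617-7217866, minus): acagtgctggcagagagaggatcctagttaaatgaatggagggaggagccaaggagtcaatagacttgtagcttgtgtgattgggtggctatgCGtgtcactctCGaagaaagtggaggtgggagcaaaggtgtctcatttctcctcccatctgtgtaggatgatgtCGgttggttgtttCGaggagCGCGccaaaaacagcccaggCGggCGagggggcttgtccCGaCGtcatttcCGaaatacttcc
*Cox8b* (unmarked; chr7:140900447-140900696, minus): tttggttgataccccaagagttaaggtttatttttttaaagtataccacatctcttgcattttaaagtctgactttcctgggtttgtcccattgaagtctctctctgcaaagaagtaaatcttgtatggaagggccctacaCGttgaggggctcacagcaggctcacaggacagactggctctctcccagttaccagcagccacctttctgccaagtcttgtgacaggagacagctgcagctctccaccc
*Cox7b* (marked; chrX:106015450-106015699, plus): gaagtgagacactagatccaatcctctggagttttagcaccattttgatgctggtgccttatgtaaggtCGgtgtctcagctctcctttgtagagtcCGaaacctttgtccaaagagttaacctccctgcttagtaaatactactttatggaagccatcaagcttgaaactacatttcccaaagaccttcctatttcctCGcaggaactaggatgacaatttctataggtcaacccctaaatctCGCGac
*Cox7b2* (unmarked; chr5:71548206-71548455, minus): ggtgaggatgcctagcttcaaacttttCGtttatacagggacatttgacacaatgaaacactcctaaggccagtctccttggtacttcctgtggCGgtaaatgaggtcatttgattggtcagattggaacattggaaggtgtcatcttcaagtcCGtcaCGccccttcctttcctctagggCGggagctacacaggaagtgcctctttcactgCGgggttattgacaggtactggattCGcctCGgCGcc

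The 2 pairs differed in opposite ways. *Cox8a* held 11 CpG in these 250 bases and *Cox8b* held 1, whereas the marked *Cox7b* held 5 and the unmarked *Cox7b2* held 9. Over the 300-base promoters, the 79 of members with H3K9ac in all 4 libraries had a median of 20 CpG (range 5 to 43), close to the 21 of all 10939 protein-coding promoters with H3K9ac in all 4 libraries and above the 13 of all 21263 promoters. *Cox7b* had the fewest, at 5.

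H3K9ac levels spread widely within a complex, from 5.92 to 30.3-fold over complex I in WT replicate 1 against medians of 11.2 to 16.1-fold for the 5 complexes in that library. The median member had 12.3 and 13.3-fold enrichment in the WT libraries and 11.3 and 13.0-fold in KO, and the medians over all genes listed were 10.7 and 11.1-fold in WT and 9.61 and 11.6-fold in KO. Ranked among all listed genes of the same library, the median member lay between percentiles 57.4 and 62.2. Complex I had medians of 11.2 and 11.6-fold in WT and 10.3 and 11.4-fold in KO, within the range of all genes. Complex II had medians of 15.4 and 11.8-fold in WT and 14.6 and 16.3-fold in KO, complex III 16.1 and 14.6-fold in WT and 13.0 and 13.8-fold in KO. Complex IV had 14.1 and 11.1-fold in WT and 10.97 and 13.6-fold in KO, and complex V 13.8 and 14.9-fold in WT and 12.8 and 11.7-fold in KO. Complex I had the lowest median in every library but WT replicate 2, where complex IV did, and the order of the other complexes changed from library to library.

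Within complex I, *Ndufa6*, an accessory subunit, had the highest mean H3K9ac rank of all complex I genes, at 22.6 and 27.1-fold in WT and 22.6 and 25.4-fold in KO. The lowest was *Ndufaf2*, an assembly factor, at 6.16 and 6.54-fold in WT and 6.80 and 5.71-fold in KO. These 2 genes did not overlap in any library. In complex II the highest was *Sdhb*, the iron-sulfur subunit, and the lowest *Sdha*, the flavoprotein that oxidises succinate. *Sdha* had 9.12 and 8.90-fold in WT and 8.38 and 12.5-fold in KO. The Rieske iron-sulfur protein *Uqcrfs1* ranked highest in complex III, at 24.9 and 15.6-fold in WT and 13.96 and 24.1-fold in KO, and *Uqcr10* lowest. *Cox4i1*, the broadly expressed Cox4 isoform, ranked highest in complex IV. In complex V the highest was *Atp5c1*, the gamma subunit of the rotating stalk, and the lowest *Atp5d*, the delta subunit bound to it.

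**Figure D3:**
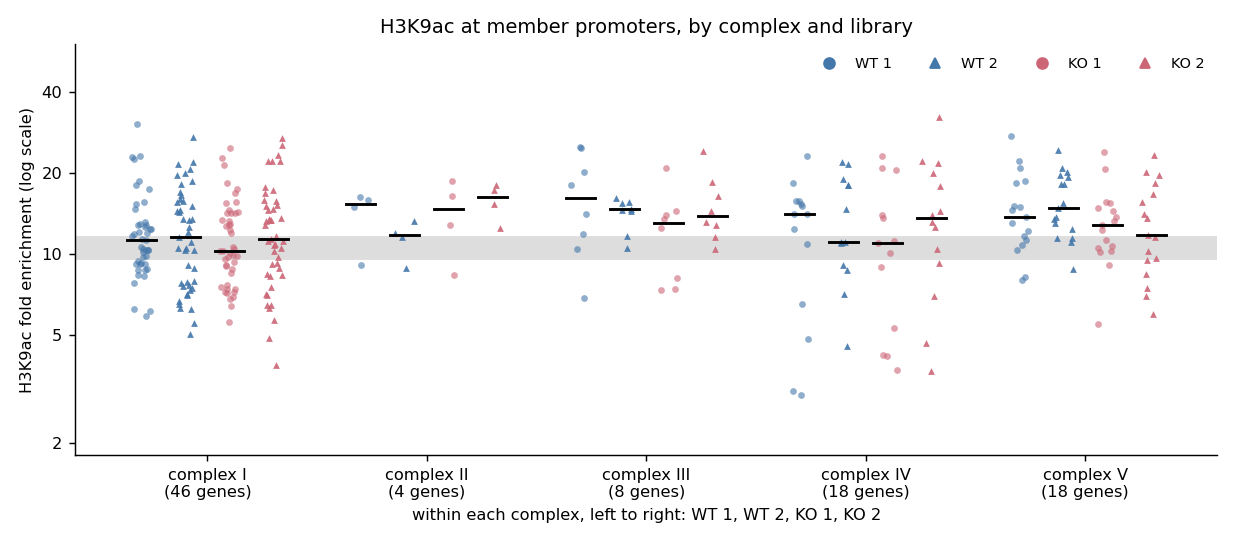
H3K9ac fold enrichment (log axis) of every listed member in each library, by complex; black bars are medians and the grey band spans the 4 library medians over all listed genes. Complex I medians lie near the band, and the lowest complex IV value of each library belongs to *Cox4i2* or *Cox6b2*.

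The order of the members was better kept in H3K9ac than in H3K4me3. Across the 87 members listed in all 4 H3K9ac libraries, Spearman's rho between replicates was 0.59 in WT and 0.56 in KO, and between genotypes 0.51 to 0.67. Across 84 members in H3K4me3 it was 0.23 in WT and 0.41 in KO, and 0.15 to 0.40 between genotypes. Over all genes the replicate values were 0.75 and 0.78 in H3K9ac and 0.40 and 0.42 in H3K4me3. These describe genes of the same libraries, which are not independent. H3K9ac peaks were alike in shape to those of other genes: the median peak was 1107 to 1312 bp wide at members and 1080 to 1302 bp over all genes. Median summits lay 138 to 147 bp downstream of the nearest TSS at members and 131 to 139 bp over all genes. The median H3K4me3 peak was wider at members in each library, from 780.5 against 766 bp in KO replicate 1 to 1146.5 against 1046 bp in WT replicate 1.

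The comparison of KO with WT asked whether loss of the acetyltransferase changed mark levels at these promoters. Log2 fold enrichment, centred on the median of each library, was compared with limma over all 10837 genes with an H3K9ac peak in all 4 libraries, 87 of them members, and all 10247 such genes in H3K4me3, 84 of them members. No member and no other gene passed an adjusted p of 0.05 in either mark (0% of genes). The smallest adjusted p by limma was 0.99991 in H3K9ac and 0.858 in H3K4me3. At an unadjusted p under 0.05 there were 2 members in H3K9ac, 1 higher in KO and 1 lower, beside 1.82% and 1.72% of all genes. In H3K4me3 there were 5, 3 higher and 2 lower, beside 2.51% and 2.71%. The median KO minus WT difference over members was 0.02 in H3K9ac and 0.05 in H3K4me3 on the log2 scale, and over all genes 0.01 and 0.00. H3K9ac was higher in KO at 45 members and lower at 42. Without centring it was higher at 34 and lower at 53, while the share of all genes that were higher went from 51.4% to 41.0%. Without KO replicate 2 it was higher at 57 members and lower at 30, beside 53.6% of all genes higher. Leaving out any other library gave 43 to 47 members higher, beside 50.1% to 51.4% of all genes. The unadjusted 95% interval of a single member spans, at the median, about 0.75 (H3K9ac) or 0.76 (H3K4me3) to either side on the log2 scale. This is a factor of 1.69 or 1.70, so changes of that size or smaller could be missed even before adjustment. The adjustment over all genes asks for more, and larger differences, such as -1.25 at *Cox6b1* in H3K4me3, were not called either. After centring, both KO values were above both WT values at 17 members in H3K9ac (16.6% of genes) and below at 10 (14.6%). In H3K4me3 the counts were 18 above (17.1%) and 14 below (17.6%).

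The largest H3K9ac difference was at *Atp5k* (chr5:108433244-108434448, minus), which encodes subunit e of ATP synthase. It had 11.2 and 15.5-fold in WT and 5.52 and 8.43-fold in KO. Both KO values were the lower ones, with a difference of -0.86 (SE 0.38, unadjusted p = 0.0293 by limma across all genes). *Ndufv1* (chr19:4007384-4012806, minus), the flavoprotein at which NADH is oxidised, had 12.6 and 10.5-fold in WT and 14.2 and 23.3-fold in KO. Its KO values were above the WT values, with a difference of 0.75 (SE 0.36, unadjusted p = 0.0457 by limma), and KO replicate 2 was the highest. In H3K4me3 the same gene had 7.05 and 2.31-fold in WT and 6.06 and 6.97-fold in KO, a centred difference of 0.74 (SE 0.40). The KO values were above WT there only after centring.

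*Cox6b1* (chr7:30616861-30626151, minus), a complex IV subunit on the intermembrane space side, had the largest H3K4me3 difference. It had 9.92 and 7.60-fold in WT and 3.22 and 3.80-fold in KO. The groups did not overlap, and the difference was -1.25 (SE 0.38, unadjusted p = 0.00202 by limma). Its H3K9ac was 15.4 and 14.7-fold in WT and 5.34 and 13.2-fold in KO, a difference of -0.76 (SE 0.39) in which KO replicate 1 was far below the other 3 libraries. Of the 84 members in both comparisons, *Cox6b1* was the only one whose centred KO values were both below both WT values in both marks, beside 2.49% of the 9887 genes in both. *Ndufa3*, *Ndufb11* and *Ndufv1* were above in both (3.34% of genes), and *Atp5g2*, *Atp5l*, *Cox7a2l* and *Ndufb4* were above in one and below in the other (5.29%).

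Next in H3K4me3 was *Atp5c1*, the gamma subunit, with 8.31 and 4.24-fold in WT and 12.4 and 12.0-fold in KO. Both KO values were higher, with a difference of 1.10 (SE 0.36, unadjusted p = 0.00362 by limma). *Ndufaf6*, a complex I assembly factor, had 7.57 and 4.24-fold in WT and 9.998 and 10.9-fold in KO. Its difference was 0.94, while its H3K9ac difference was -0.29 with overlapping groups. *Atp5d*, the delta subunit, had 7.60 and 5.63-fold in WT and 2.85 and 3.92-fold in KO, a difference of -0.91. *Ndufa4* had 7.69 and 2.69-fold in WT and 7.82 and 7.38-fold in KO, a difference of 0.80. Its KO values were both above WT only after centring. WT replicate 2 had the lowest H3K4me3 value at *Ndufv1*, *Atp5c1*, *Ndufaf6* and *Ndufa4*, and it was the library with the shortest H3K4me3 list. Without WT replicate 2, the median H3K4me3 difference was 0.005 over members and -0.003 over all genes. It was -0.013 and -0.034 without WT replicate 1, 0.084 and 0.015 without KO replicate 1, and -0.019 and 0.023 without KO replicate 2. Each of these fits leaves 1 library in a genotype, so their counts of small p-values are not compared here. The other members named by size were *Ndufb2* (-0.73), *Ndufs3* (-0.69), *Ndufs5* (0.71) and *Atp5l* (0.62).

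In H3K9ac the rest of the 10 largest non-overlapping differences were higher in KO at *Ndufa8* (0.68), *Cox4i1* (0.56), *Ndufc2* (0.54), *Atp5g2* (0.53) and *Cox5a* (0.50) and lower at *Ndufv3* (-0.52) and *Atp5j2* (-0.51), and none of them passed the test.

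**Figure D4:**
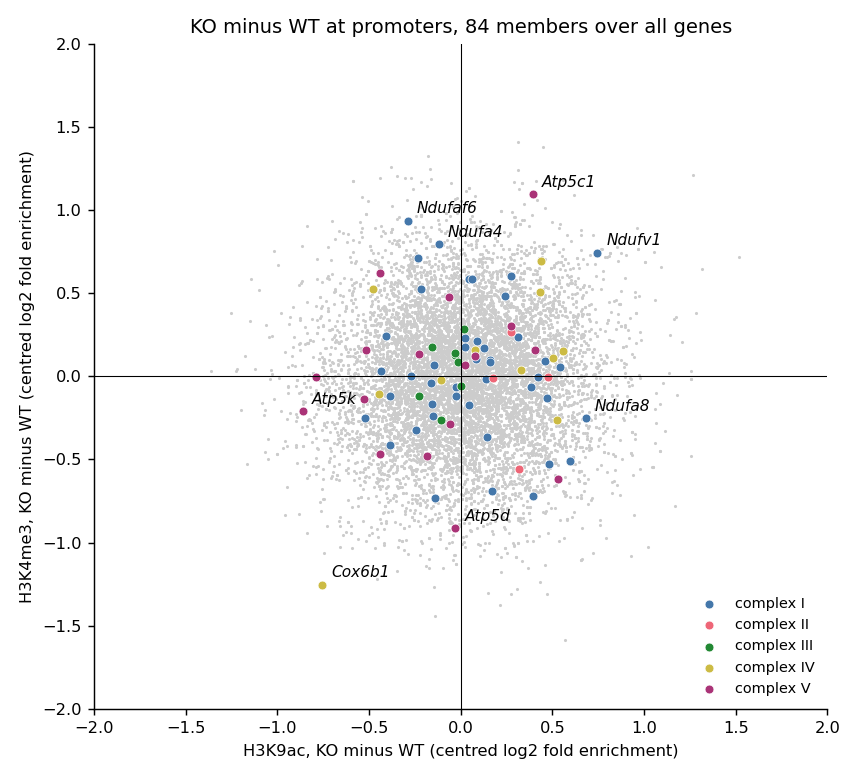
KO minus WT difference in centred log2 fold enrichment for H3K9ac (horizontal) and H3K4me3 (vertical), for the 84 members in both comparisons, coloured by complex, over all 9887 genes in both (grey). The members spread like the other genes, with *Cox6b1* at -0.76 and -1.25 and *Ndufv1* at 0.75 and 0.74.

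The catalytic core subunits followed the same pattern, with no call among them. *Ndufs1*, the largest iron-sulfur subunit of complex I, had H3K9ac at 15.4 and 18.6-fold in WT and 14.2 and 22.2-fold in KO. *Ndufs7* and *Ndufs8*, which carry the last iron-sulfur clusters before ubiquinone, were lower, at 10.3 and 7.67-fold and 9.20 and 6.30-fold in WT and 9.03 and 6.30-fold and 8.83 and 6.50-fold in KO. WT and KO overlapped at all 3. All 4 complex II genes had positive H3K9ac differences, from 0.18 at *Sdhc* to 0.47 at *Sdhb*. *Sdhb* had 14.9 and 13.3-fold in WT and 18.7 and 18.0-fold in KO, with no overlap, while its H3K4me3 values overlapped. The 4 differences stayed positive without centring and with quantile normalization, but both reuse the same 4 libraries and are no independent check. None passed the test. Over complex II, the median centred log2 H3K9ac was lowest for WT replicate 2, at 0.01. It reached 0.41 for WT replicate 1, close to the 0.43 of KO replicate 2, and 0.55 for KO replicate 1. Both KO values were above both WT values at 2 of the 4 genes, and genes are not replicates. Over all genes 51.4% of H3K9ac differences were positive, and 41.0% without centring. In complex III the H3K9ac difference was positive at 2 of 8 genes, 0 of 8 without centring and 1 of 8 with quantile normalization. Its centred differences ran only from -0.23 to 0.02, with a median of -0.03. Centred differences were positive at 26 of 45 genes of complex I, 7 of 13 of complex IV and 6 of 17 of complex V. In H3K4me3, complex II was positive at 1 of 4. *Sdhd*, a membrane anchor, had an H3K4me3 difference of -0.56 with both KO values below WT after centring. The complex III core proteins *Uqcrc1* and *Uqcrc2* had H3K9ac differences of -0.16 and 0.02, and the catalytic beta subunit *Atp5b* and the alpha subunit *Atp5a1* -0.07 and 0.08.

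H3K27ac was compared in replicate 2, with 1 library per genotype and so no test. It was listed at 83 members in WT (44.3% of all genes) and 87 in KO (49.8%). All 83 WT genes were also listed in KO, so none was in WT only (0.433% of all genes), and 4 genes were listed in KO only (5.85% of all genes): *Ndufa1*, *Ndufa5*, *Ndufaf2* and *Ndufaf4*. All 4 belong to complex I, the latter pair being assembly factors. Their KO fold enrichments were 7.24, 4.93, 7.16 and 4.12. Each had H3K9ac and H3K4me3 in all 4 libraries, with H3K9ac between 5.06 and 11.4-fold and a mean H3K9ac percentile among all listed genes of 23.4 to 35.3. *Ndufa1* did have an H3K27ac peak in WT replicate 1 (3.46-fold). The KO list holds 46047 peaks and the WT list 29757, and with the KO list cut to the length of the WT list 86 members were listed in KO. Among the 83 shared genes the median centred KO minus WT difference was 0.09, beside -0.03 over all 9634 genes listed in both. Of the 83, H3K27ac was higher in KO at 49 and lower at 34, beside 47.7% of all genes higher.

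More than 2-fold higher H3K27ac in KO after centring was found at 3 members (2.50% of genes) and more than 2-fold lower at 1 (3.32%). *Ndufs1* had 3.83-fold in WT and 14.1-fold in KO, a centred difference of 1.39. *Atp5g3*, 1 of the genes for the c subunit of the proton-driven ring, had 4.49 and 14.3-fold (1.19), and *Ndufs3* 4.92 and 14.3-fold (1.05). The 1 lower gene was *Uqcrc1*, with 8.02-fold in WT and 5.10-fold in KO (-1.14). These 4 were chosen after their values were seen. In replicate 1, H3K27ac was listed at 21 members in WT (12.7% of all genes) and at none in KO (0.470%).

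H3K4me1 was listed at 25 members in WT replicate 2 (18.4% of genes) and at 56 in KO replicate 2 (37.2%). It was in both at 18 members, in KO only at 38 (22.9% of genes), in WT only at 7 (4.00%) and in neither at 31. KO-only listing was also found at 34 of 78 mitochondrial ribosomal protein genes and 29 of 86 cytosolic ones. Among the complexes it was most frequent in complex V, at 13 of 18 genes, counted with the lists at their full lengths. The KO list is also longer over the whole genome (78042 peaks against 45770), and at equal list lengths 34 members were listed in KO and 25 in WT. The WT list was weaker too, with 34.3% of its peaks at a q-value of at most 0.05, against 83.6% in KO. Its median peak width was 215 bp, against 425 bp in KO. The KO-only counts therefore compare 2 lists of unlike quality. At the 18 shared members the median centred difference was 0.02, which is also the value over all 3156 genes listed in both, and no member differed by more than 2-fold (0.792% of genes higher in KO, 0.444% lower). In KO the median H3K4me1 peak at a member was 458 bp wide, and 39.3% of summits lay within 500 bp of a TSS, against 48.5% over all genes. In replicate 1, H3K4me1 was listed at 2 members in either genotype (1.85% of genes in WT, 3.29% in KO).

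**Figure D5:**
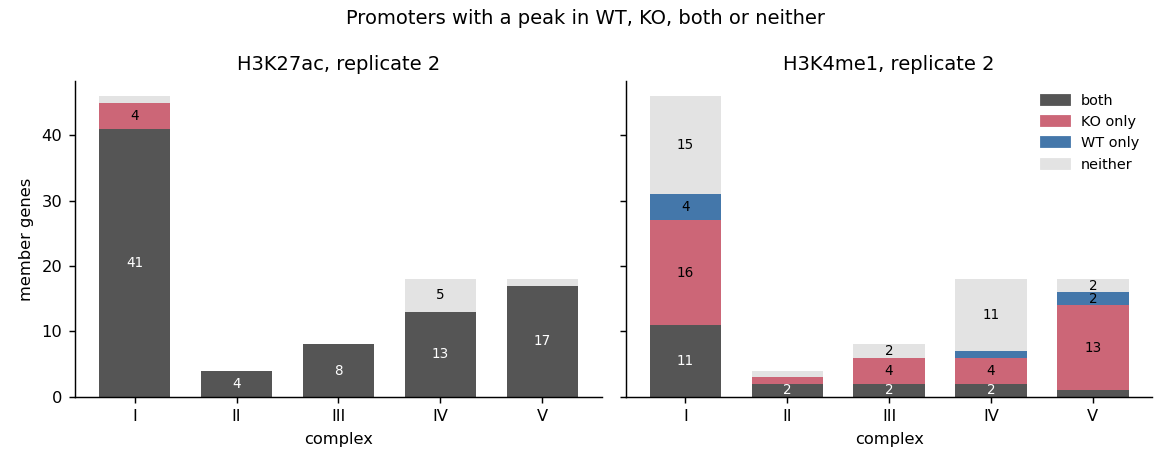
Number of member genes in each complex with a replicate 2 peak of H3K27ac or H3K4me1 in both genotypes, KO only, WT only or neither (segments of 1 gene carry no number). The 4 KO-only H3K27ac genes are all in complex I, and the KO-only H3K4me1 genes include 13 of 18 in complex V.

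Many of these promoters are shared with a neighbour. A protein-coding gene on the opposite strand started head to head within 1 kb at 34 of 94 members (36.2%), against 10.99% of all genes. Among genes with H3K9ac in all 4 libraries the shares were 39.1% and 20.3%. The share was 29 of 78 (37.2%) for mitochondrial ribosomal protein genes and 16 of 86 (18.6%) for cytosolic ones. Complex IV stood out with 1 of 18, *Cox4i1*, which faces *Emc8* and *Gm27021*. At such promoters a peak cannot be given to 1 of the 2 genes. *Atp5j*, a subunit of the ATP synthase peripheral stalk, faces *Gabpa*, which encodes an ETS factor known to act on respiratory chain genes. The pair had the same strongest H3K9ac peak values, 27.4 and 18.2-fold in WT and 20.7 and 10.2-fold in KO. Of the genes named for large H3K9ac or H3K4me3 differences, *Atp5k*, *Ndufv1* and *Cox6b1* had no such neighbour. Besides *Cox4i1*, *Atp5c1* faces *Kin*, *Ndufa4* faces *Phf14* and *Atp5d* faces *Cbarp*. *Ndufa8* faces *Morn5*, *Ndufv3* faces *Wdr4*, *Ndufs3* faces *Kbtbd4*, and the others had none. *Ndufs1*, named below its H3K27ac values as well, faces *Eef1b2*.

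Motifs of factors known to act on these genes were searched on both strands of the 81 promoters. The NRF1 letters GCATGCG were in 13 (16.05%), against 4.44% of all 21263 protein-coding promoters and 6.75% of those with H3K9ac in all 4 libraries. The GABPA letters CCGGAAG were in 18 (22.2%, against 11.6% and 19.4%), the YY1 letters ATGGCGG in 13 (16.05%, against 5.25% and 8.62%) and the ESRRA letters AAGGTCA in 8 (9.88%, against 4.08% and 3.06%). The SP1 letters GGGCGGG were in 35.8% of member promoters, against 33.9% and 47.6%. The MYC letters CACGTG were in 8.64%, against 7.84% and 10.2%, and the TATA letters TATAAA in 9.88%, against 12.6% and 6.45%. None of the searched letters contains another. YY1 letters were at 10 of 40 complex I genes and 0 of 13 complex IV genes. A match is a description of the letters only, and head-to-head genes share part of their promoter.

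Stretches upstream of 2 members are shown with their matches in capitals, *Cox6a1* for its NRF1 and SP1 letters and *Ndufv1* because it had the largest positive H3K9ac difference among the members. In *Cox6a1* the NRF1 letters read on both strands and overlap, starting 161 bases before the start, and the SP1 letters lie on the other strand, starting 45 bases before it. In *Ndufv1* the MYC letters start 169 bases before the start. Neither stretch touches an annotated exon. The *Cox6a1* stretch runs from 171 to 24 bases before the start, with annotated exon bases on either side of it. The *Ndufv1* stretch runs from 250 to 52 bases before the start.
*Cox6a1* (chr5:115348982-115349129, minus): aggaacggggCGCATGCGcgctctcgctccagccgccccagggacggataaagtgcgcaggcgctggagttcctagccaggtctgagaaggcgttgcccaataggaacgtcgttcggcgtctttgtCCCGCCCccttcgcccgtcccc
*Ndufv1* (chr19:4012807-4013005, minus): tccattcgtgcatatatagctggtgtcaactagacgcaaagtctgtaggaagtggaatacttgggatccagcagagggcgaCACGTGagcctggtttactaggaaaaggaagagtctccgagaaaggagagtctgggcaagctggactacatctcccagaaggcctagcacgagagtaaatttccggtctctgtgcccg

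Genes of the chain outside the symbol rule were marked alike. H3K9ac was listed in all 4 libraries at *Cyc1* and *Cycs*, for cytochromes c1 and c, and in none at the testis gene *Cyct*. *Cycs* had 12.0 and 19.7-fold in WT and 11.5 and 10.8-fold in KO. Of 37 further genes, which are assembly factors apart from the ATP synthase subunit *Usmg5* and the ATPase inhibitor *Atpif1*, 36 were listed in all 4 and the assembly factor *Sdhaf1* in none. Of 14 regulators, 12 were listed in all 4, among them *Nrf1* with 22.5 and 19.5-fold in WT and 16.3 and 21.8-fold in KO, *Gabpa*, *Esrra*, *Yy1*, *Tfam* and *Pprc1*. The coactivator genes *Ppargc1a* and *Ppargc1b* were not. *Ppargc1a* had an H3K9ac peak in WT replicate 1 only (2.62-fold) and no H3K4me3 peak. *Ppargc1b* had H3K4me3 in all 4 libraries and H3K9ac in replicate 1 of WT (4.19-fold) and replicate 2 of KO (3.96-fold).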

How the data were processed

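Per the methods and the submitters' processing notes, the authors used BWA against mm10 for alignment and MACS2 for peaks, library by library (versions not given in the sources used here). The deposited lists give each peak a score, a fold enrichment over background (a ratio), a −log10 p-value, a −log10 q-value and a summit position. The methods name a q-value of 0.05, but the lists reach down to a −log10 p of 2. The 16 input libraries were not analysed here. The labels give 5000000 cells per ChIP for H3K9ac and H3K4me3 and 500000 for H3K27ac and H3K4me1.

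The members and lists were chosen with earlier results of these data known. Log2 fold enrichment of the strongest peak in each window was centred on the library median and compared with limma 3.58.1 (R 4.3.3; lmFit, eBayes with trend, Benjamini-Hochberg adjustment over all genes in the fit). With 2 libraries per genotype an exact permutation test cannot give a p under 0.33. Where the labels do not say that replicates are separate animals, p-values measure only the spread between preparations. Counts of listed genes were not tested, since genes are not replicates. The interval code was tested on simulated data against bedtools 2.31.1. Python 3.11.15 and pandas 2.3.3 were used.

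Genes named in the text included, per mark, the 10 members with the largest absolute difference whose centred WT and KO values did not overlap. The others were members without a peak, core subunits, the tissue-restricted isoforms with their partners, and the highest and lowest H3K9ac rank in each complex. Sequences were printed for members of these kinds with a searched motif in the 300-base promoter, plus *Cox7b*, which was chosen after its values were seen. Promoters of *Atp5a1*, *Atp5mpl*, *Cox4i1*, *Cox4i2*, *Cox6a2*, *Cox6c*, *Cox8c*, *Ndufa2*, *Ndufa4l2*, *Ndufaf6*, *Ndufb9*, *Ndufs1*, *Sdhc*, *Uqcrb*, *Uqcrc2* and *Uqcrq*, among others, were not analysed here.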

Additional observations from a re-analysis of the deposited data

How the results depend on the processing

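Of 161 values recomputed under alternatives, 136 kept their side of the threshold or stayed close to the reported value. No member was called in either mark under any alternative of peak threshold, scaling, filter, window or measure, or with 1 library left out. Over all genes in the test, leaving out 1 library gave 0 to 2 calls in H3K9ac (2 without WT replicate 1) and 0 to 2 in H3K4me3 (2 without KO replicate 2), none of them a member. The numbers 1 and 2 are shared by both genotypes, but the labels do not tie them to a shared preparation, and deviations of same-numbered libraries correlated at 0.13 in H3K9ac and -0.00146 in H3K4me3. With the replicate number as a block, 0 genes were called in either mark. With peaks of −log10 q of at least 5, 1 member was listed for H3K4me3 in both WT and neither KO library and 1 in both KO and neither WT. At equal list lengths, 1 member was listed for H3K4me3 in both KO and neither WT library, and with the summit required inside the window 1 was for H3K9ac. H3K4me1 depended most on the threshold: with peaks of −log10 q of at least 5 it was listed at 0 members in WT and 2 in KO. With a q-value of at most 0.05 it was listed at 9 in WT and 53 in KO. The counts were 15 in WT and 43 in KO with the outermost TSS only, and 25 and 34 at equal list lengths. The cause was not tested. The median difference over members was 0.02 in H3K9ac and 0.05 in H3K4me3 and changed sign without centring, to -0.07 and -0.01. In H3K9ac it ranged from -0.0019 (without KO replicate 1) to 0.12 (without KO replicate 2) when 1 library was left out, and was also slightly below 0 with quantile normalization and with −log10 q of at least 5. In H3K4me3 it ranged from -0.02 (without KO replicate 2) to 0.08 (without KO replicate 1) and was also below 0 without WT replicate 1.

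With 2 libraries per genotype from 1 pool of animals each, and 1 for H3K27ac and H3K4me1, differences between leukemias and between genotypes cannot be told apart. A missing peak says only that none reached the peak caller's limit.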
